A study of Mus musculus with 4 samples.

Results

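The genes described here are 48 genes of the lysosome and of its fusion with autophagosomes, and the question is whether Deaf1 peaks lie at their ends in C2C12 cells. C2C12 is an established line of mouse myoblasts, the precursors of muscle fibres. Deaf1 is a DNA-binding transcription factor that recognises short sites with a CpG at their core. They were taken by name and role, with no peak value in the rule, though earlier results of these data were known, out of 21887 protein-coding genes on chromosomes 1 to 19, X and Y. The series title links Deaf1 to autophagy and muscle regeneration. It comprises 4 libraries of untreated C2C12 cells grown in serum: 2 from chromatin immunoprecipitation (ChIP) with an antibody to Deaf1 and 2 inputs without antibody. Each ChIP library came with its own peak list, and 1 combined list held the regions found in both. There was no second condition and no library of cells lacking Deaf1, so only occupancy in 1 state of 1 line is described. The labels do not say whether the replicates came from separate cultures, and peak lists cannot check the labelled cell type against its marker genes.

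Lysosomes are acidic organelles that break down proteins, lipids and sugars delivered by endocytosis and autophagy. Their acid hydrolases work at a low pH set by the V-ATPase, a proton pump with a cytosolic V1 part and a membrane V0 part. Autophagosomes deliver their cargo by fusing with lysosomes, which needs the small GTPase Rab7, tethering complexes and a bundle of SNARE proteins. TFEB and TFE3 are transcription factors that switch on many of these genes through sites that contain CACGTG. In muscle, a block in this pathway, as in inherited loss of the hydrolase GAA, leads to stored glycogen and a myopathy.

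Deaf1 regions were present at few of these genes, and most genes of the list had none. A gene was counted as bound when a row of a list came within 1 kb of the start or the end of its annotated span. In the combined list, 3 of the 48 genes (6.25%) were bound: Rab7, Atp6v1d and Atp6v1e1. Among the 21839 other protein-coding genes the share was 6.99%, which would correspond to 3.35 genes in a list of 48. In the peak list of replicate 1, 4 of the 48 (8.33%) had a peak, against 7.52% of the other genes. In that of replicate 2, 4 of the 48 (8.33%) had a peak, against 11.3% of the other genes. The members' shares thus lay near the background in each list, and these counts are no result that sets the members apart. Across the 3 lists together, 5 of 48 genes (10.4%) had a row at an end, against 11.7% of the other genes, and 43 had none.

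**Figure D1:**
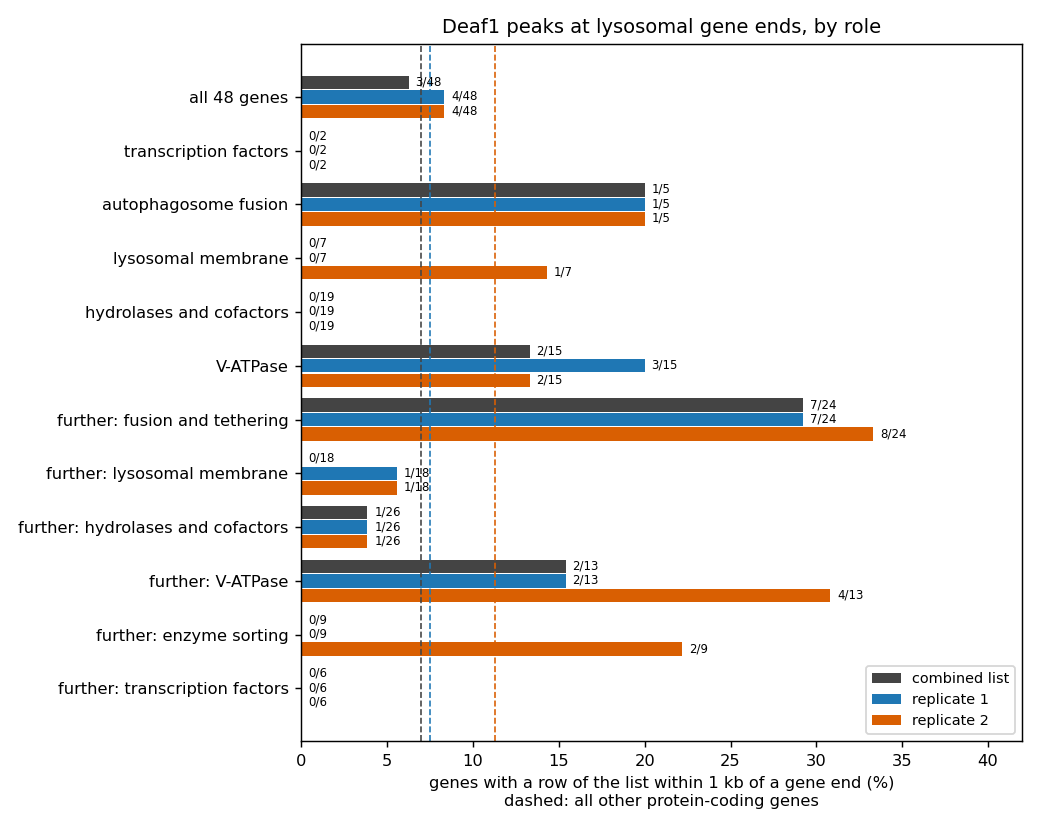
Share of genes (%, horizontal axis) with a row of the combined list, replicate 1 or replicate 2 within 1 kb of a gene end, by role, with the number of bound genes out of the group beside each bar. Dashed lines mark the other protein-coding genes (6.99%, 7.52% and 11.3%). The bar for the 48 genes stands close to these lines, and the 19 hydrolases and cofactors have no bar. The further fusion and tethering genes have 7 of 24 in the combined list and 8 of 24 in replicate 2. The further genes were listed with earlier results of these data known.

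Of the 5 autophagosome fusion genes, only Rab7 was bound, and it was bound in each list. Rab7 marks late endosomes, autophagosomes and lysosomes and recruits the tethers that bring them together. The region of the combined list lay at chr6:88045202-88045334 (GRCm38), across the annotated start of Rab7 at 88045270 on the minus strand. The fold enrichment is the value of the authors' peak caller, summit ChIP fragments plus 1 over the background plus 1. The background is the number of fragments that the caller expected there. From the fold enrichment and the p-value the number of ChIP fragments stacked at the summit was recovered. Replicate 1 had a fold enrichment of 8.21 with 22 fragments (95% exact Poisson interval 13.8 to 33.3) over a background of 1.80. Replicate 2 had a fold enrichment of 10.0 with 30 fragments (20.2 to 42.8) over a background of 2.09. Each background was the lowest of any peak in its list. The mean fold enrichment was 9.12 ± 1.29 (SD, n = 2), and the fragment intervals of the replicates overlapped. The summits lay 8 bp and 9 bp upstream of the start, so they agreed to within 1 bp. No other gene end was near: that of Rpn1 was 39195 bp away. The irreproducible discovery rate (IDR) of the combined list, a chance that a region's rank does not repeat between replicates, was 0.032 here, the lowest of the 3 bound members. By fold enrichment the peak ranked 607th of 1860 in replicate 1 and 514th of 3126 in replicate 2.

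The other genes of this group had no row at an end in any list. Stx17 encodes the SNARE that autophagosomes acquire before fusion, and the nearest region of the combined list was 1445405 bp from its nearer end. Its partners Snap29 and Vamp8 were 292035 bp and 37846 bp from a region. Epg5, a tether that binds Rab7, was 994237 bp away. The nearest peaks of replicate 2 were 81382 bp (Stx17), 78047 bp (Snap29), 37846 bp (Vamp8) and 164399 bp (Epg5) away.

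The V-ATPase held the other 2 genes bound in the combined list, both subunits of the cytosolic V1 part. In the combined list 2 of the 8 V1 genes were bound (Atp6v1d and Atp6v1e1), with none of the 5 V0 genes and neither of the accessory genes Atp6ap1 and Atp6ap2. The background share of 6.99% corresponds to 0.559 of 8 genes. Replicate 1 added Atp6v1a, which gave 3 of 8 V1 genes, where the background corresponds to 0.602. Replicate 2 gave 2 of 8, where it corresponds to 0.9. Of all 15 V-ATPase genes, 2 were bound in the combined list, 3 in replicate 1 and 2 in replicate 2. The background corresponds to 1.05, 1.13 and 1.69 of 15 genes. These groups are small, and no test was run on their counts. Atp6v1d encodes the D subunit of the central shaft that turns within the pump. Its region, chr12:78861532-78861773, covered the annotated start at 78861638 on the minus strand. Replicate 1 had a fold enrichment of 8.91 with 30 fragments (20.2 to 42.8 by the same interval), and replicate 2 had 5.83 with 33 fragments (22.7 to 46.3). The background was 2.48 fragments in replicate 1 and 4.84 in replicate 2, and the fragment intervals overlapped. The mean was 7.37 ± 2.18 (SD, n = 2), with an IDR of 0.17. The span of Atp6v1d ends next to that of Eif2s1, a translation initiation factor gene on the other strand. The summits lay 397 bp and 451 bp from the end of Eif2s1 and 333 bp and 387 bp from that of Atp6v1d, but 37 bp upstream and 17 bp downstream of the annotated Atp6v1d start.

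Atp6v1e1 encodes the E subunit of the pump's outer stalks. Its region, chr6:120822728-120822857, lay wholly upstream of the annotated start at 120822698 on the minus strand. Replicate 1 gave a fold of 4.43 from 19 fragments (11.4 to 29.7), and replicate 2 gave 5.90 from 22 fragments (13.8 to 33.3). The mean of 5.16 ± 1.04 (SD, n = 2) was below the median peak of each list (6.87 and 6.41). This region had the lowest score in the combined list, 121, which stands for an IDR of 0.51. The summits lay 100 bp and 70 bp upstream of the start.

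Atp6v1a encodes the catalytic A subunit, where ATP is split. It had a peak in replicate 1 only, at chr16:44139261-44139390, with a fold enrichment of 5.98 and 26 fragments (interval 16.98 to 38.10) over a background of 3.51. The summit lay 54 bp upstream of the annotated start at 44139259 on the minus strand. It was 389 bp from the end of the Atp6v1a span and 478 bp from an end of Naa50. The nearest peak of replicate 2 was 584803 bp from the gene's nearer end. A difference between the replicates at this gene was not tested, since the lists give no fragment number where no peak was found.

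The stretches of these 4 peaks that lie upstream of the annotated start are printed as examples of the DNA under the peaks. They come from RefSeq promoter windows on GRCm38.p6 and run 5′ to 3′ on the strand of the gene. They end at the peak or at the base before the start. The parts of a peak past the start are left out, and with them the replicate 2 summit of Atp6v1d, 17 bp downstream. Capitals mark 3 words on either strand: TTCG (or CGAA), the core that Deaf1 is known to bind; TTCCG (or CGGAA), chosen after these stretches were seen; and CACGTG. Within the 4 stretches TTCG did not occur, TTCCG occurred in each, and CACGTG occurred once, at the far edge of the Atp6v1a peak.
Rab7, chr6:88045271-88045334, minus strand: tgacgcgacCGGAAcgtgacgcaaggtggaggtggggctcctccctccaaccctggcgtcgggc
Atp6v1d, chr12:78861639-78861772, minus strand: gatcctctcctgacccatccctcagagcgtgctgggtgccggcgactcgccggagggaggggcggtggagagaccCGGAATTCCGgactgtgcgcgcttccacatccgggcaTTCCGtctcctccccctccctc
Atp6v1e1, chr6:120822728-120822857, minus strand: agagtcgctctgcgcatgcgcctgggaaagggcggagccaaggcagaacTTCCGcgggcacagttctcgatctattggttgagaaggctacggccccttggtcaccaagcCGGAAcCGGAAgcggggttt
Atp6v1a, chr16:44139261-44139390, minus strand: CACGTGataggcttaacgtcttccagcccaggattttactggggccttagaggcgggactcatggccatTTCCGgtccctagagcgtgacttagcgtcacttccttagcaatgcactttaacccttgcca

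The stretches of Atp6v1d and Atp6v1e1 held 3 TTCCG sites each, and those of Rab7 and Atp6v1a held 1 each. The site in the Rab7 stretch began 55 bases upstream of the start, and that in the Atp6v1a stretch 62 bases upstream. A match of letters is a description and does not show that Deaf1 touches these bases.

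**Figure D2:**
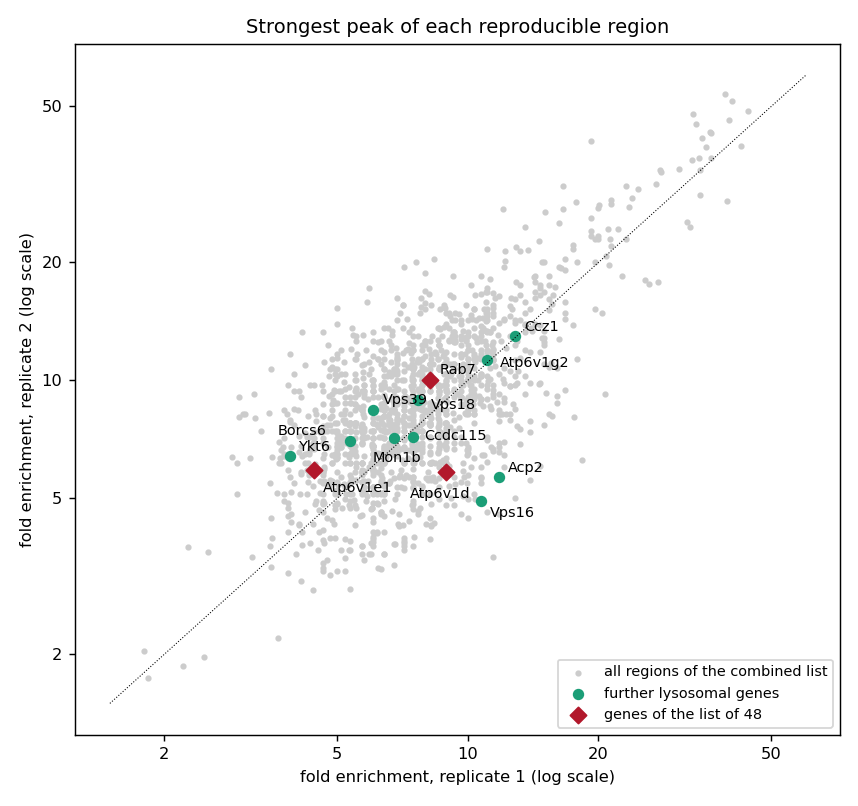
Fold enrichment of the strongest peak of each of the 1550 regions of the combined list in replicate 1 (horizontal, log scale) and replicate 2 (vertical, log scale), each point 1 region and the dotted line equality. Red diamonds are the 3 bound genes of the list of 48 and green circles the 10 further lysosomal genes. Ccz1 is the highest of these 13 at 12.9 ± 0.072. Atp6v1d, Acp2, Vps16 and, slightly, Ccdc115 lie below the line, and the log2 differences of Vps16 (-1.12) and Acp2 (-1.06) are outside the central 95% of all regions (-0.90 to 1.16).

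The transcription factor genes Tfeb and Tfe3, which encode the activators of lysosomal genes, had no row at an end in any list. The nearest region of the combined list was 48855 bp from Tfeb and 30414104 bp from Tfe3, which lies on the X chromosome. None of the 7 genes for lysosomal membrane proteins was bound in the combined list or in replicate 1. The glycoprotein genes Lamp1 and Lamp2, whose products line the lysosomal membrane, were 54198 bp and 209630 bp from a region. Mcoln1, which encodes a calcium channel of the lysosome, was 106003 bp away, and Cd63 and Scarb2 were 90588 bp and 357365 bp away. Peaks of replicate 2 lay closer to Tfe3 (66086 bp), Lamp2 (144097 bp) and Scarb2 (6014 bp). For Tfeb (48855 bp), Lamp1 (54198 bp), Mcoln1 (106038 bp) and Cd63 (90588 bp) the replicate 2 distance was about the same.

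Npc1, which encodes the membrane protein that exports cholesterol from lysosomes, had a peak in replicate 2 only. The peak spanned 12236406 to 12236543 of chromosome 18, and 18 bp separated its summit from the gene end. The fold enrichment was 4.86 with 14 fragments (interval 7.65 to 23.5), and 21.8% of the peaks of that list had a lower fold. The lowest summit of any peak was 10 fragments in each list, so this peak stood near the low end by fragment number. Its −log10 q of 4.36 was above the lowest of the replicate 2 list, 1.11.

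None of the 19 genes for hydrolases and their lumenal cofactors had a row at an end in any of the lists. At the background share, 1.33 of 19 genes would be bound in the combined list and 2.14 in replicate 2, so an empty group of this size is a small departure and was not tested. The group includes the proteases Ctsb, Ctsd, Ctsl and Tpp1, and the sugar-cleaving enzymes Gaa, Gla, Glb1, Gusb, Hexa, Naglu and Neu1. It also includes the sulphatases Arsa, Arsb and Sgsh, the lipid enzymes Asah1, Smpd1 and Ppt1, the cholesterol carrier Npc2, and Psap, the precursor of the saposins. The nearest regions of the combined list ranged from 14462 bp (Gaa) to 5154076 bp (Asah1) from a gene end. In replicate 2 the nearest peaks ranged from 1183 bp (Arsa) to 1122942 bp (Hexa), with 19437 bp for Asah1. A gene without a row may still carry fragments, in numbers below those needed for a peak.

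The peaks nearest to the limit of 1 kb are given as a description. Inside it, the rows farthest from a gene end were those of Atp6v1a, at 312 bp in replicate 1, and of Atp6v1d, at 235 bp. Just outside, replicate 2 had a peak within Arsa, 1183 bp from its end, with a fold enrichment of 5.28 and 18 fragments. The next were 2490 bp from Gla, 4671 bp from Atp6v0b, 4720 bp from Cln3 and 4872 bp from Naglu. Each of these was closer to an end of another gene: Rpl36a (37 bp), Dph2 (46 bp), Eif3c (26 bp) and Coasy (32 bp). The Cln3 case was the only one in the combined list and had an IDR score of 697. The Gla and Naglu peaks were in replicate 2 only and the Atp6v0b peak in replicate 1 only.

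**Figure D3:**
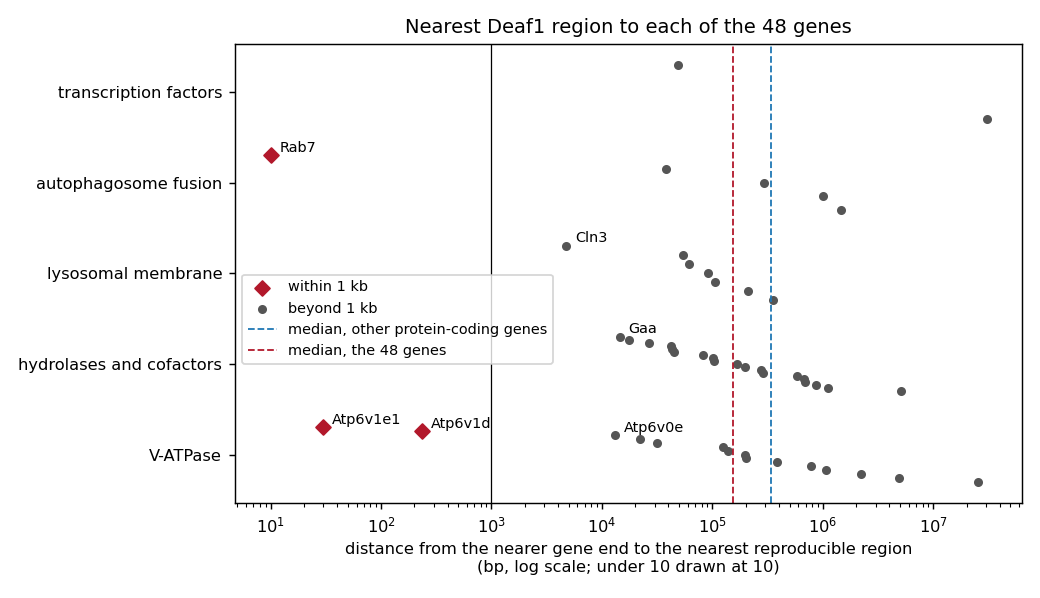
Distance in bp (log scale, horizontal) from the nearer end of each of the 48 genes to the nearest region of the combined list, by role, 1 point per gene. The solid line marks 1 kb, and the dashed lines mark the medians of the 48 genes (152502 bp) and of the other protein-coding genes (339543 bp). Rab7, Atp6v1e1 and Atp6v1d stand left of 1 kb, then a gap follows to Cln3 at 4720 bp.

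The median distance from a gene end to the nearest region of the combined list was 152502 bp for the 48 genes (interquartile range 43087 to 683310). For the 21583 other genes on a chromosome with a region it was 339543 bp (72339 to 1242630). Within 10 kb the shares were 8.33% of the 48 genes and 10.7% of the others in the combined list, 12.5% and 11.5% in replicate 1, and 18.8% and 16.8% in replicate 2. Within 100 kb of a region of the combined list the shares were 39.6% and 29.2%. Gene density around the members was not measured.

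Other rules for the combined list gave between 0 and 4 member genes. An IDR score of at least 540, which stands for an IDR of at most 0.05, was reached by 608 of the 1550 regions. At that score 1 of 48 genes was left (Rab7), against 3.13% of the others. At a score of at least 830 none was left, against 0.394%. A distance of 500 bp kept Rab7, Atp6v1d and Atp6v1e1 (6.25% against 6.53%), and 5 kb gave 4 genes (8.33% against 8.77%). The whole span plus 1 kb gave 3 genes (6.25% against 7.69%). Counting a region only for the gene with the nearest end also gave 3 (6.25% against 5.52%). With annotated starts in place of gene ends, 3 of the 40 genes that have one in the promoter table were bound (7.5% against 7.31%). A −log10 q of at least 5 in each replicate left 2 genes (4.17% against 6.3%), since the Atp6v1e1 peak of replicate 1 had 4.86.

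A further 96 lysosomal genes, which are not among the 48, give the rest of the pathway. In the combined list 10 of them (10.4%) were bound, against 6.99% of the protein-coding genes other than the 48, the 96 included. The replicates gave 11 (11.5%, against 7.52%) and 16 (16.7%, against 11.3%). The bound genes were Ykt6, Vps16, Vps18, Vps39, Mon1b, Ccz1, Borcs6, Acp2, Atp6v1g2 and Ccdc115. The fusion and tethering genes held 7 of them, out of 24 (29.2%), where the background share corresponds to 1.68 genes. The further genes were listed with earlier results of these data known, so this count supports nothing about the group. No set test was run on it. The further hydrolase genes had 1 bound gene of 26 (Acp2), the V-ATPase genes 2 of 13, and the 18 membrane, 9 enzyme sorting and 6 transcription factor genes none. At an IDR score of at least 540 the 96 genes kept 3 (Vps18, Ccz1 and Atp6v1g2), a share of 3.12% against 3.13%.

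Several of these products act on or with Rab7. MON1 and CCZ1 proteins form the exchange factor that loads Rab7 with GTP, and VPS16, VPS18 and VPS39 belong to the HOPS tether that Rab7 recruits. Regions lay at 3 of the 6 HOPS genes and at 2 of the 3 exchange factor genes, against 6.99% of the genes other than the 48. These groups were drawn after the values were seen, so their counts support nothing about Rab7. Ccz1 had the highest fold enrichment, 12.8 in replicate 1 with 35 fragments and 13.0 in replicate 2 with 39 fragments, a mean of 12.9 ± 0.072 (SD, n = 2) and an IDR of 0.013. Vps18 had 7.70 and 8.94 with 27 and 32 fragments, a mean of 8.32 ± 0.87 (SD, n = 2). Vps16 had 10.7 in replicate 1 and 4.93 in replicate 2, so its mean of 7.82 ± 4.09 (SD, n = 2) is poorly fixed. At Vps16 the background was 1.80 fragments in replicate 1, the lowest of any peak in that list, and 3.87 in replicate 2. The summit held 29 and 23 fragments. Vps39 had 6.07 and 8.42, and Mon1b had 6.78 and 7.12. The IDR was 0.03 at Vps18, 0.33 at Vps16, 0.2 at Vps39 and 0.19 at Mon1b. Of the bound HOPS and exchange factor genes, only Vps18 and Ccz1 thus had an IDR of at most 0.05. Ykt6, which encodes an autophagosomal SNARE, had 3.89 and 6.41, and Borcs6, a subunit of the complex that moves lysosomes outward, had 5.35 and 7.02, each with the lowest IDR score of 121.

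The remaining regions, like those of Vps16 and Atp6v1d, lay within 1 kb of an end of another gene. They could be given to 1 gene only by distance. At Vps16 the summits lay 323 bp and 314 bp from an end of Pced1a, and 2 bp and 7 bp from its own. At Acp2, which encodes a lysosomal phosphatase, the summits were closer to an end of Nr1h3 (15 bp and 35 bp) than to the end of Acp2. At Atp6v1g2 the summits lay 918 bp and 923 bp from its end and 632 bp and 627 bp from that of Nfkbil1. At Ccdc115, a factor for V-ATPase assembly, the summits in the region lay 172 bp and 162 bp downstream of the start, and a second peak of replicate 2 lay 22 bp from an end of Imp4.

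The upstream stretches of the peaks at Ccz1 and Vps18 are shown because these were the strongest of the Rab7-linked regions with a start in the promoter table and with summits close together in both replicates. They are printed as above, with the same 3 words in capitals. The Vps18 summits, 5 bp and 7 bp downstream of the start, lie outside its stretch. Ccz1 held 1 TTCG and 2 TTCCG sites, and Vps18 held 1 TTCCG site.
Ccz1, chr5:144014858-144015013, minus strand: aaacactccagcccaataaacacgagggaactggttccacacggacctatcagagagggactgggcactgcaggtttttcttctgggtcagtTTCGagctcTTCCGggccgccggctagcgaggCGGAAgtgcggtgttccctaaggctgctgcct
Vps18, chr2:119288604-119288741, plus strand: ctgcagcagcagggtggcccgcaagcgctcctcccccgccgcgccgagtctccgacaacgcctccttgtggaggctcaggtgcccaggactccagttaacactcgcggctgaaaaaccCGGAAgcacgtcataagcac

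Bound members had their summits close to the annotated start, as did bound genes in general. For the strongest replicate 2 peak, the median distance to a start was 17 bp for the 3 bound members, and all 3 lay within 250 bp. Among 1236 other bound genes with a start, the median was 51 bp and 80.8% lay within 250 bp.

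The promoter windows were searched for the site that TFEB reads. A window ran from 250 bases before to 50 bases after a gene's start, 1 per gene, for 17492 genes and 40 of the 48 members. CACGTG, which reads the same on both strands, occurred in 14 of 40 member windows (35%), in 13 of 75 windows of the further lysosomal genes (17.3%) and in 7.9% of all windows. It was found in 8 of 17 hydrolase genes, 4 of 11 V-ATPase genes and 2 of 6 membrane genes, and in none of the windows of Tfeb, Tfe3 or the 4 fusion genes. All 14 were among the 37 windows of members without a region of the combined list, and the windows of Rab7, Atp6v1d and Atp6v1e1 did not hold it. With 3 bound members, that is too few to say that the site and a region avoid each other. Over all genes CACGTG was in 9.2% of windows with a region at the gene's end and in 7.8% of the others. Among windows with 17 to 28 CpG the order turned, with 8.27% and 11.9%.

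Lamp1, Mcoln1 and Atp6v0b are printed as examples because they held several such sites close to the start and no Deaf1 region. The sequences end upstream of the start, run 5′ to 3′ on the gene's strand, and have CACGTG in capitals.
Lamp1, chr8:13159088-13159160, plus strand: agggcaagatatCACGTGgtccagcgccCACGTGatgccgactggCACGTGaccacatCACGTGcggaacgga
Mcoln1, chr8:3500436-3500491, plus strand: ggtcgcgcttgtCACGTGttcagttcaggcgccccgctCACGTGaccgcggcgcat
Atp6v0b, chr4:117887330-117887377, minus strand: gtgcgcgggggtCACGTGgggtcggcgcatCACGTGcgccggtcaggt

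Lamp1 had 4 sites between 61 and 15 bases upstream of its start, and Mcoln1 and Atp6v0b had 2 each. Over the genome, the other words differed more than CACGTG between genes with and without a region. TTCG on either strand was in 69.9% of the 1239 windows of genes with a region, in 47.4% of the 16253 windows of genes without one, and in 23 of 40 member windows (57.5%). In the members the TTCG windows included 2 of the 3 with a region. TTCCG on either strand was in 83% of windows with a region, in 32.4% of those without, and in 36% of all. Among the members it was in 17 of 40 windows (42.5%), including all 3 with a region and 14 of the 37 without. TTCCG was chosen after the stretches of these 3 genes were seen, so their count was fixed beforehand and supports nothing. The shares over all genes are likewise a description of a word picked from these data. CpG content moved with these shares: the median window of genes with a region held 22 CpG and that of genes without one 12, against 17 for the members. Its part in the difference between bound and unbound genes was not tested for the members, which were too few.

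**Figure D4:**
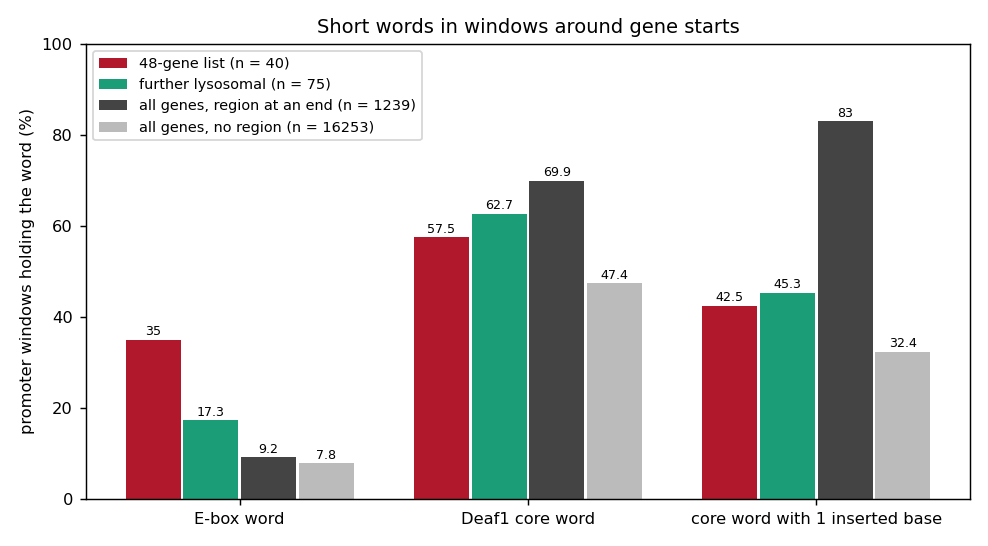
Share of promoter windows (%, vertical axis) that hold the E-box word that TFEB reads (CACGTG), the Deaf1 core word (TTCG), or TTCCG. The last is labelled as the core word with 1 inserted base. Bars are for the 48-gene list, the further lysosomal genes, and all genes with or without a region of the combined list at an end. The list of 48 stands highest for the E-box (35%), and genes with a region stand highest for TTCCG (83%). TTCCG was chosen after the printed stretches were seen, and whether Deaf1 binds it was not tested.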

How the data were processed

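Peak lists of 2 Deaf1 ChIP libraries and 1 combined list were analysed. The 2 inputs have no file of their own here. Per the submitters' processing notes, FastQC 0.11.8, BWA 0.7.17-r1198, MACS2 2.1.2 and the build mm10 were used. Settings, duplicate removal and the program that made the combined list are not given in the sources used here. The labels' protocols describe formaldehyde fixation and also name native ChIP-seq. The deposited fold enrichment is a ratio, summit fragments plus 1 over expected fragments plus 1, and the deposited p and q are −log10 values of the authors' peak caller. The deposited score of the combined list was read as an IDR, which its layout and values fit, and 6 unnamed columns were not used.

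Summit fragments were recovered from fold and p for 100% of peaks (largest error in −log10 p 5.1e-05); intervals are 95% exact Poisson and cover counting error only. The lists held 1860 and 3126 peaks, with median summits of 22 and 23 fragments, so single peaks are known only within wide intervals. Genes came from RefSeq on GRCm38.p6. Summits within 1 kb of a gene end were 73.8% and 68.1% of the lists, and 10.6% and 10.1% after a shift by 5 kb. Promoter windows were RefSeq's. Bound genes were counted with Python 3.11.15, pandas 2.3.3 and scipy 1.17.1, checked on simulated peaks. Named were all members with a row in any list, 6 members whatever their values (Rab7, Lamp1, Lamp2, Tfeb, Tfe3 and Stx17), and further genes in the combined list. Other members are named by role. Members and lists were chosen with earlier results of these data known, and no test was run.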

Additional observations from a re-analysis of the deposited data

How the results depend on the processing

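The IDR score changed the counts most. Of the 48 genes, 1 was bound at a score of at least 540 and 0 at 830. Of the 96 further lysosomal genes, 3 were bound at 540 and 0 at 830. With only 75 regions left at 830, lists of this size say little. Leaving out replicate 1 or replicate 2 leaves the list of the other replicate, so these counts repeat those given above. They were 4 and 4 of the 48 genes, against 11.3% and 7.52% of the other genes. The genes differed, with Npc1 only in replicate 2 and Atp6v1a only in replicate 1. For the further genes the count ran from 11 to 16. A distance of 5 kb raised the replicate 2 count of the 48 genes from 4 to 8. The other 32 values stayed within 1.5 times the value reported or were identical to it. Among them, the fold enrichments with the peak nearest to the gene end in place of the strongest could not differ. Each of those genes had only 1 peak at its ends in any replicate that had a peak there. No paired analysis was possible because the inputs have no list of their own and the ChIP libraries form 1 group. Depth limits the rest: a gene with fewer than about 10 fragments at its summit could not appear in either list.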

Other observations

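The word TTCCG, chosen after the printed stretches had been seen, was set against CpG content over all genes. Among windows whose CpG number lay in the interquartile range of genes with a region (17 to 28), it occurred in 577 of 641 windows with a region at the gene's end (90%) and in 2036 of 3987 without one (51.1%). The median CpG number was 22 in both sets. In the same windows TTCG occurred in 73.8% and 65.6%, and CACGTG in 8.27% and 11.9%. No test was run on these shares, and neighbouring genes with overlapping windows are not independent.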
